A study of Mus musculus with 25 samples.

Results

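Embryoid bodies (EBs) exposed to triiodothyronine (T3), the active thyroid hormone, were set against EBs exposed to dexamethasone (DEX), a synthetic glucocorticoid, or to TCDD, the dioxin 2,3,7,8-tetrachlorodibenzo-p-dioxin and a ligand of the aryl hydrocarbon receptor (AhR). The arrays were chosen by their titles. There were 2 T3 arrays (1 nM and 10 nM) and 4 reference arrays (DEX at 1 nM and 10 nM, TCDD at 1 nM and 10 nM), out of 25 arrays in the series. All 6 samples were total RNA of mouse embryonic stem cells (mESCs) of C57BL/6 background, exposed for 48 h after leukemia inhibitory factor was withdrawn and EBs began to form. Per the methods, the cells were 1 line (B6G-2, from a mouse that expresses GFP), the line was kept on deactivated mouse fibroblasts that were removed before EB formation, the stem cell medium held fetal bovine serum, and the vehicle was dimethyl sulfoxide (DMSO). The thyroid hormone content of the medium was not given. The labels show 1 array per dose, so the p-values below do not measure the spread between cultures. The limma p-values and intervals rest on the spread between the doses of a chemical, pooled over the 12 chemicals of the series. Some of these had wider dose steps than T3, DEX and TCDD.

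Thyroid hormone enters cells through transporters, is activated or inactivated by deiodinases, and binds the nuclear receptors encoded by Thra and Thrb, which sit on DNA with a retinoid X receptor partner. Without hormone the pair recruits corepressors, and with hormone it recruits coactivators. The glucocorticoid receptor and AhR, which DEX and TCDD bind, are also ligand-activated transcription factors but read other DNA elements. T3 is known for raising lipogenic and metabolic genes in liver and, in neural cells, genes such as Klf9 and Hr. Me1, which makes NADPH for fatty acid synthesis as cytosolic malic enzyme, and Klf9, a zinc finger transcription factor, are classical T3 targets. Klf9 is also a glucocorticoid target, so its level is set against a chemical that can act on the same gene.

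The sequences before the start sites of these 2 genes are shown because both genes are read as T3 targets below. RefSeq (GRCm38.p6) gave 1 start for Klf9 and 2 for Me1, and the upstream start of Me1 is shown. Each run is the 250 bases before the start, and capitals mark a match to any of the motifs searched.
Klf9, plus strand, chr19:23140976-23141225: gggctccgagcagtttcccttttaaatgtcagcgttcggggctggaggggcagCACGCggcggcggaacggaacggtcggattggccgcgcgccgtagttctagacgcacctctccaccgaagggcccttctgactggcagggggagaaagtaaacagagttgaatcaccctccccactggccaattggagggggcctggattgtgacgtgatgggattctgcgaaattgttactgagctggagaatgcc
Me1, minus strand, chr9:86695915-86696164: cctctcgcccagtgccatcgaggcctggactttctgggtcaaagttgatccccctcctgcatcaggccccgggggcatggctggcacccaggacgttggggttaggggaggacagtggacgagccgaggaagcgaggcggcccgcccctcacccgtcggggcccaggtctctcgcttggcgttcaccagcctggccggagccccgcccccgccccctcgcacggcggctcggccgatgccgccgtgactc
The motifs, searched on both strands of the 300-base windows that add 50 bases after the start, were the half-site AGGTCA, the direct repeat of 2 such half-sites with 4 bases between (DR4, the arrangement that thyroid hormone receptors favour, which by construction also matches the half-site), AGAACA and TGTTCT with 3 bases between (a glucocorticoid element), and GCGTG (the AhR core). Klf9 held 1 AhR core, on the minus strand, and neither start of Me1 held any of the 4. Of all 32851 promoter windows, 16.3% held the half-site, 32.4% the AhR core, 5 the exact DR4 and 3 the exact glucocorticoid element. A match is a description of these letters and was not tested as a binding site.

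Values are log2 intensities after background correction and quantile normalization over the 25 arrays, on which a difference of 1 is a doubling. Of 45281 probes, 19140 were detected (detection p under 0.01) on at least 2 arrays and were tested, and 16497 of these carried 1 gene symbol, for 10656 genes. Between 15254 and 16284 probes were detected on each of the 6 arrays. The stem cell markers Pou5f1 (12.996 and 12.79 on the T3 arrays, 12.80 to 12.98 on the DEX and TCDD arrays), Sox2 (10.49 and 10.34 on the T3 arrays, 10.20 to 10.70 on the others), Nanog and Sall4 were detected on all 6 arrays. The early endoderm factors Gata6 and Sox17 were also detected on all 6, while Pax6, Sox1 and Afp were detected too seldom on the 25 arrays to be tested. Of the fibroblast genes, 17 of 25 were tested, with a summed intensity of 6235 to 6381 on the T3 arrays and 6247 to 7040 on the DEX and TCDD arrays, and the collagens Col1a1 and Col1a2 were detected on neither T3 array. Decorin (Dcn) was 6.96 and 7.31 in T3, against 6.78 and 6.96 in DEX and 6.76 and 6.44 in TCDD, while fibronectin (Fn1) was 9.46 and 8.93 in T3, against 9.17 and 9.38 in DEX and 9.53 and 9.79 in TCDD. Of the 17 fibroblast genes tested, 6 differences were positive and 11 negative, with a median of -0.04, and none passed.

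The array-wide signal before normalization separated the groups. The median deposited intensity was 12.3 and 11.1 on the T3 arrays at 1 nM and 10 nM, 9.44 and 9.90 on the DEX arrays, and 8.13 and 7.84 on the TCDD arrays. Both T3 medians lay above all 4 of the others (exact permutation test, two-sided, p = 0.133, which is the smallest p that the 15 ways of choosing 2 of 6 arrays allow, so no single value could reach 0.05 in that test). Its part in the differences between normalized values was not tested.

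**Figure D1:**
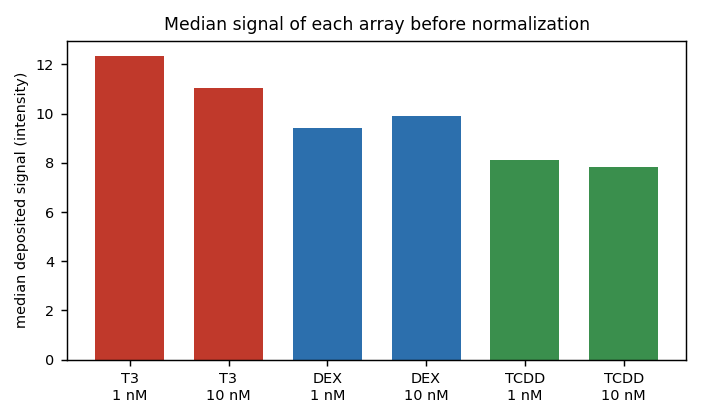
Median deposited intensity (linear, before normalization) of each of the 6 arrays, with T3 at the left, DEX in the middle and TCDD at the right. The T3 bars, 12.3 and 11.1, are above the DEX and TCDD bars, which reach 9.90 at most.

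No probe differed between T3 and the mean of DEX and TCDD at an adjusted p under 0.05 in limma with Benjamini-Hochberg adjustment (0% of 19140, smallest adjusted p = 0.471). The comparisons of T3 with DEX alone (0%, smallest adjusted p = 0.892) and with TCDD alone (0%, smallest adjusted p = 0.378) gave no probe either. At an unadjusted p under 0.05 there were 677 higher probes (3.54%) and 492 lower probes (2.57%) in T3 against both chemicals, 806 probes (4.21%) in either direction against DEX alone, and 1392 (7.27%) against TCDD alone. The methods' t-test, a two-tailed Student's t-test on the 2 and 4 arrays, also called none after Benjamini-Hochberg adjustment, and 651 higher and 677 lower without it. Genes below are therefore given by their values.

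The intervals bound the size of the differences. The 95% interval of the log2 difference had a median half-width of 0.37 over all probes and 0.23 over the 6584 probes with a mean log2 intensity above 9. It lay wholly within -1 to 1, less than a doubling or halving, for 95.6% of all probes and 100% of those brighter ones. The central 95% of all differences ran from -0.42 to 0.48. Only 4 probes were more than 1 higher in T3 and 2 more than 1 lower, and none of these 6 was among the brighter probes.

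Me1 was higher in T3 at both doses but did not pass the test. Its log2 intensity was 9.22 and 8.96 in T3 at 1 nM and 10 nM, against 8.84 and 8.71 in DEX and 8.77 and 8.85 in TCDD. Both T3 values exceeded all 4 others, and the T3 array at the lower dose was the higher. The difference was 0.30 ± 0.15 (SE), a 1.23-fold ratio with a 95% interval of 0.994 to 1.52 (limma p = 0.0561, adjusted p = 0.826; exact permutation p = 0.133). At matched doses it was 0.42 at 1 nM and 0.18 at 10 nM. The difference was 0.32 against DEX alone and 0.28 against TCDD alone. Of all probes, 8.59% had both T3 values above the 4 others and 8.52% had both below, and Me1's separation is read against that share.

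Klf9 was level across the 3 chemicals. Its log2 intensity was 12.62 and 12.53 in T3, against 12.63 and 12.60 in DEX and 12.53 and 12.57 in TCDD, so the ranges overlapped. The difference was -0.0049 ± 0.083 (SE), a ratio of 0.997 with a 95% interval of 0.886 to 1.12 (limma adjusted p = 0.997; exact permutation p = 0.933). Against DEX alone the log2 difference was -0.04 and against TCDD alone 0.03.

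**Figure D2:**
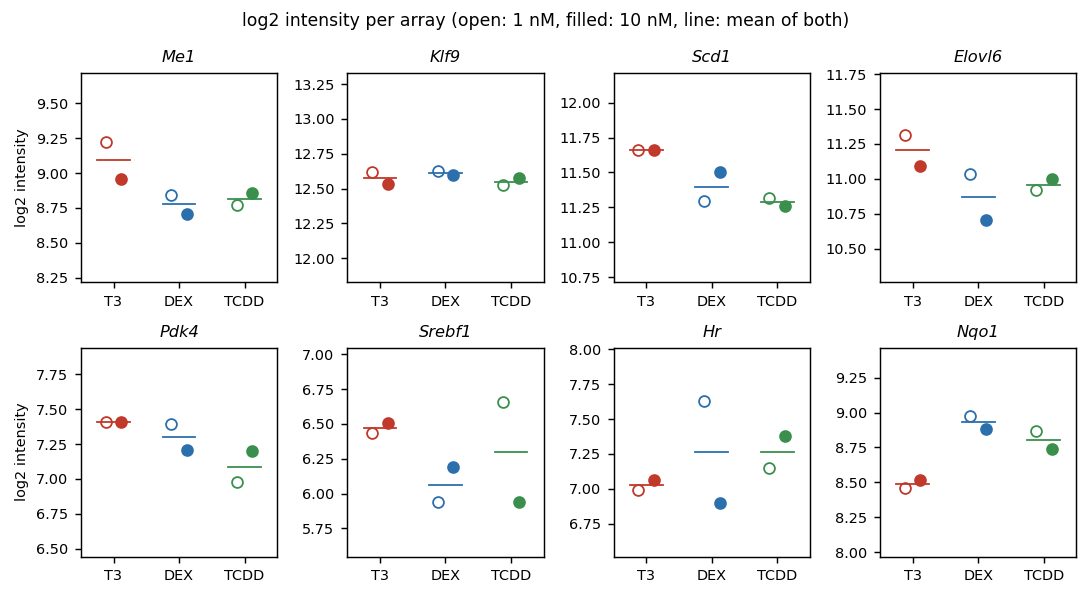
Log2 intensity of 8 genes (the T3 targets Me1, Klf9, Scd1, Pdk4, Srebf1 and Hr, the fatty acid elongase Elovl6, and the AhR target Nqo1) on each array, T3 left, DEX middle and TCDD right, each panel spanning 1.5 log2 units. Open circles are 1 nM, filled circles 10 nM and the line is the mean of both. Me1, Scd1, Elovl6 and Pdk4 have both T3 circles above the other 4, Nqo1 has both below, and Klf9, Srebf1 and Hr overlap.

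Messages for the hormone receptors themselves were not measurable. The probe for Thra and the probe for Thrb were detected on none of the 25 arrays, so no level is given for either. Of the 17 receptors and partners, 15 had a probe assigned to that symbol alone and 11 were tested. None passed, the log2 differences of their brightest probes ran from -0.14 to 0.17 (median 0.05, beside a median of -0.0030 over all 10656 genes), and all 11 had T3 values that overlapped the others. Rxra, a retinoid X receptor that pairs with the thyroid hormone receptors, was 6.81 and 6.96 in T3, against 6.22 and 6.42 in DEX and 7.05 and 7.16 in TCDD, so that T3 lay between the reference chemicals. Rxrb, a second partner, was 11.12 and 11.33 in T3, against 11.33 and 11.31 in DEX and 11.25 and 11.31 in TCDD. The tested corepressor and coactivator genes (Hdac3, Tbl1x, Tbl1xr1, Gps2, Crebbp, Ep300, Ncoa3 and Med1) lay in that same range on their brightest probes. Other probes detected on all 6 arrays lay outside it, at 0.42 for Med1, 0.30 for Crebbp and -0.34 for Tbl1x.

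Of 12 genes for hormone transport, binding and deiodination, 5 were tested, with a median difference of -0.14. None had both T3 values above, or both below, all the other arrays. Slc7a8, an amino acid transporter that also carries iodothyronines, was 6.75 and 6.57 in T3, against 6.86 and 6.62 in DEX and 7.16 and 7.22 in TCDD (difference -0.30 ± 0.24 SE, adjusted p = 0.904). Ttr, the carrier protein transthyretin, was 9.59 and 9.37 in T3, against 9.68 and 9.49 in DEX and 9.62 and 9.70 in TCDD. Dio3, the deiodinase that inactivates T3 and is itself a target of the hormone, was detected on neither T3 array and on 1 of the 4 others. The probes for Dio1, Dio2 and the transporter Slco1c1 were detected on none of the 25 arrays.

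Among 40 thyroid hormone target genes, 37 had a probe and 23 were tested. None passed in either direction against both chemicals, against DEX alone or against TCDD alone. There were 10 positive and 13 negative differences, with a median of -0.02, and 3 genes had both T3 values above the others while 0 had both below. Over all 10656 genes tested these counts were 887 above (8.32%) and 979 below (9.19%), so 3 of 23 was close to the share over all genes. At 1 nM the median was 0.01 and at 10 nM it was -0.03. All 23 had a 95% interval within -1 to 1.

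Scd1, stearoyl-CoA desaturase, had the smallest p of the list. It was 11.66 on both T3 arrays, against 11.30 and 11.50 in DEX and 11.31 and 11.26 in TCDD. Its difference was 0.32 ± 0.11 (SE), a ratio of 1.25 (95% interval 1.06 to 1.46; limma p = 0.00881, adjusted p = 0.671; exact permutation p = 0.133), and it was 0.36 at 1 nM and 0.28 at 10 nM. Pdk4, the kinase that switches off pyruvate dehydrogenase, was the third gene whose T3 values lay above the rest, at 7.41 on both arrays, against 7.40 and 7.21 in DEX and 6.97 and 7.20 in TCDD. That margin over the DEX array at 1 nM was within the spread of the doses (difference 0.21 ± 0.26 SE).

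Other classical targets did not separate. Srebf1, a master regulator of lipogenesis, was 6.44 and 6.51 in T3, against 5.94 and 6.19 in DEX and 6.66 and 5.94 in TCDD. Hr, the corepressor hairless, which T3 raises in developing brain, was 6.99 and 7.06 in T3, against 7.63 and 6.90 in DEX and 7.15 and 7.38 in TCDD, a difference of -0.24 ± 0.21 (SE). The probes for Thrsp, a lipogenic T3 target of liver, were not detected on any of the 25 arrays.

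**Figure D3:**
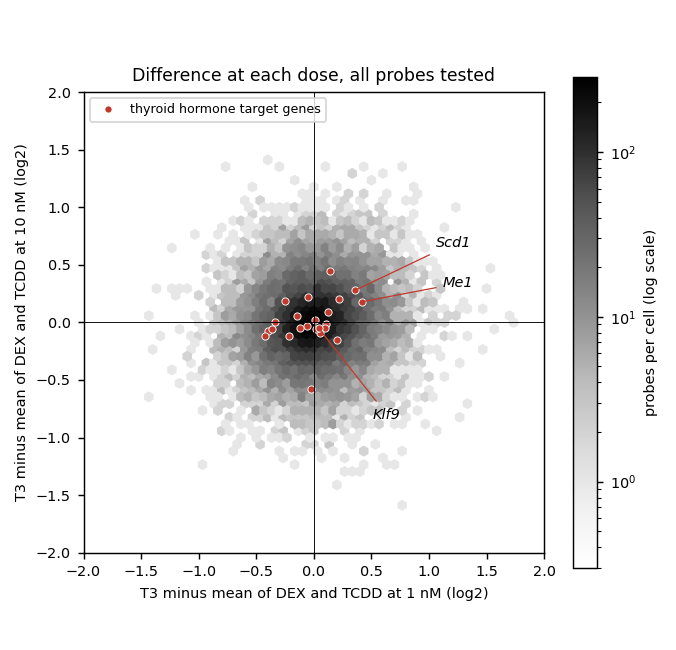
Log2 difference between T3 and the mean of DEX and TCDD at 1 nM (x axis) and at 10 nM (y axis) for the 19140 probes tested (grey, darker for more probes, log scale), with the 23 tested thyroid hormone target genes in red. The cloud is nearly round, and Me1 and Scd1 lie in the upper right quadrant while Klf9 lies near 0 on both axes.

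The doses gave largely unrelated profiles. The difference at 1 nM and the difference at 10 nM, which share no array, had a Pearson correlation of 0.0864 across the 19140 probes and 0.220 across the 6584 brighter ones, and 54.1% of probes had the same sign at both doses. The same measure was 0.0071 for DEX against the mean of T3 and TCDD, and 0.0941 for TCDD against the mean of T3 and DEX. Across the brighter probes it was 0.0131 for DEX and 0.153 for TCDD, both below the T3 value. Probes are not independent replicates, all 6 arrays were normalized together, and these values are descriptions. The root mean square difference was 0.215 for T3, 0.200 for DEX and 0.226 for TCDD. The 2 arrays of the same chemical correlated at 0.474 to 0.488 after each probe was centred on its mean over 25 arrays, and T3 arrays correlated with DEX or TCDD arrays at 0.372 to 0.518. By this correlation, T3 at 1 nM and 10 nM were no more alike than some pairs across chemicals. By the root mean square log2 difference between 2 arrays, the T3 pair was the closest of all pairs, at 0.303. T3 arrays paired with DEX or TCDD arrays gave 0.310 to 0.358.

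The reference chemicals' own targets are needed to read the contrast, since a gene raised by DEX or TCDD would appear lower in T3. The probe for Nr3c1, which encodes the glucocorticoid receptor, and the probe for Ahr were detected on no array of the series. As for Thra and Thrb, no level is given for these receptor genes. Of 33 glucocorticoid targets, 23 were tested and none passed (9 positive, 14 negative, median -0.02). Fkbp5, a chaperone partner of the glucocorticoid receptor and a standard DEX target, was 9.92 and 9.93 in T3, against 9.88 and 9.81 in DEX and 9.77 and 9.68 in TCDD, so it was not higher in DEX than in T3. Cebpd, a transcription factor, was 11.19 and 11.02 in T3, against 10.999 and 10.78 in DEX and 10.81 and 11.03 in TCDD. Cdkn1c, a cell cycle inhibitor, had both T3 values (11.09 and 11.22) below those of DEX (11.42 and 11.30) and TCDD (11.40 and 11.36), with a difference of -0.22 ± 0.13 (SE). Dusp1, a phosphatase, was 13.17 and 13.06 in T3, against 13.01 and 13.11 in DEX and 12.90 and 12.92 in TCDD. Cebpd and Dusp1 thus overlapped between T3 and the others, and 1 of the 23 genes lay wholly above the others in T3 and 3 wholly below, near the 8.32% and 9.19% of all genes.

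Of 20 AhR targets and partners, 9 were tested and none passed (3 positive, 6 negative, median -0.08). Nqo1, a quinone reductase induced through AhR and NRF2, was 8.46 and 8.52 in T3, against 8.98 and 8.88 in DEX and 8.87 and 8.74 in TCDD. Its difference was -0.38 ± 0.15 (SE), a ratio of 0.769 (95% interval 0.623 to 0.950; limma p = 0.0164, adjusted p = 0.737; exact permutation p = 0.133), and DEX, not TCDD, was the higher of the others. Cyp1b1, a cytochrome of the AhR response, was 5.36 on both T3 arrays, against 5.03 and 4.74 in DEX and 6.11 and 5.76 in TCDD. The TCDD values were the highest of the 6, but the probe was detected on only 1 of the 6 arrays. Arnt, the partner with which AhR binds DNA, was 9.94 and 9.88 in T3, against 9.79 and 9.71 in DEX and 9.80 and 9.91 in TCDD. The probe for Cyp1a1, the hallmark AhR target, was detected on none of the 25 arrays.

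**Figure D4:**
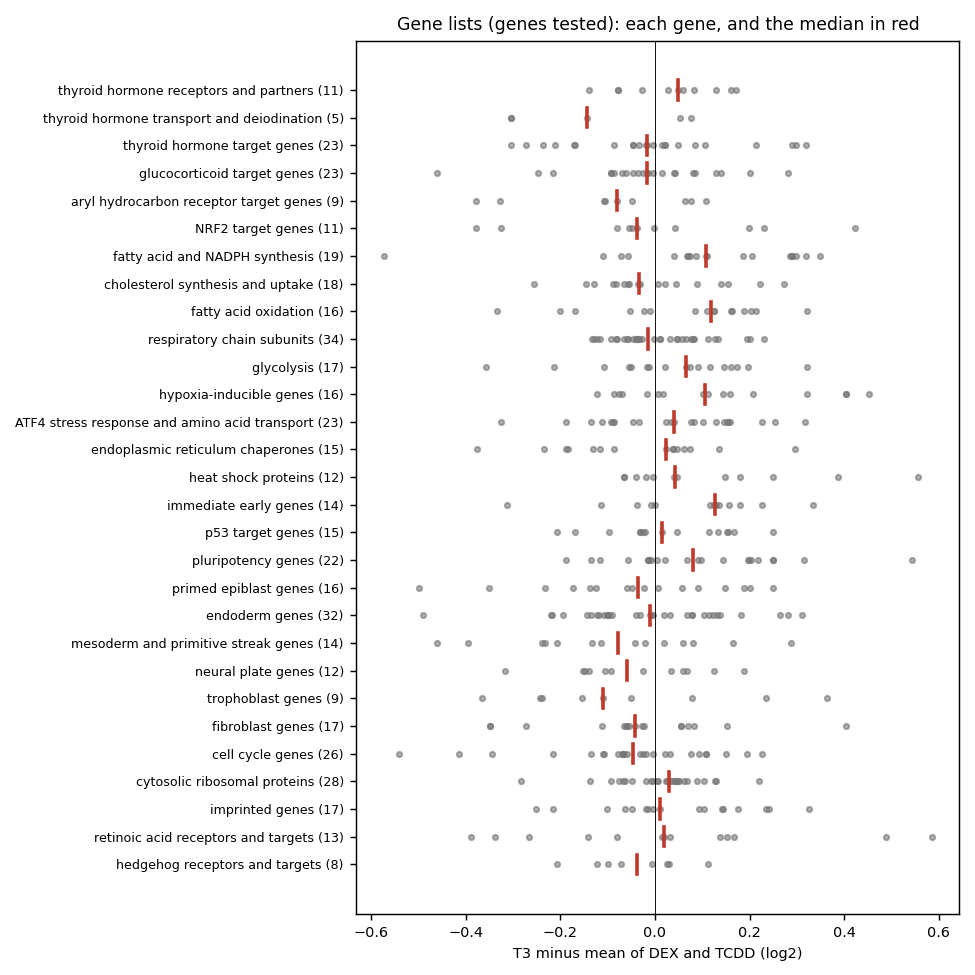
Log2 difference between T3 and the mean of DEX and TCDD for every tested gene (grey points) of 29 gene lists, with the list median as a red bar and the number of genes tested in parentheses. The medians lie between -0.14 and 0.13.

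Of the 29 lists, fatty acid and NADPH synthesis had the largest share of differences of 1 sign. The lists were chosen with earlier results of these data known, and this one was picked out as the largest. Of the 24 genes on this list 19 were tested, and none passed. Their summed intensity overlapped, at 40610 to 44572 on the T3 arrays and 39290 to 40881 on the DEX and TCDD arrays. There were 15 positive and 4 negative differences (median 0.11), beside 5255 positive and 5401 negative over all genes tested, and 5 of 19 genes had both T3 values above the other arrays and 1 both below, beside 8.32% and 9.19% of all genes. Me1 and Scd1 belong to this list. Elovl6, which elongates palmitate, was 11.31 and 11.09 in T3, against 11.04 and 10.70 in DEX and 10.92 and 10.996 in TCDD (difference 0.29 ± 0.13 SE). Dgat2, which makes triglyceride from diglyceride, went the other way at 8.22 and 8.31 in T3, against 8.82 and 9.07 in DEX and 8.79 and 8.67 in TCDD, a difference of -0.57 ± 0.14 (SE, adjusted p = 0.471).

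Fatty acid oxidation was near the same median (0.12, 10 positive and 6 negative of 16). Pdk1, a pyruvate dehydrogenase kinase that is also on the lists of hypoxia-inducible and glycolytic genes, was 12.03 and 11.77 in T3, against 11.70 and 11.55 in DEX and 11.63 and 11.44 in TCDD, while its other tested probe gave a difference of 0.04 ± 0.21 (SE). Acaa2, a mitochondrial thiolase, gave -0.33 on its brightest probe (8.45 and 8.42 in T3, against 8.77 and 8.94 in DEX and 8.73 and 8.64 in TCDD), but its 3 other tested probes gave -0.06, 0.08 and 0.36.

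Pluripotency genes had 14 positive and 8 negative differences of 22 tested, with a median of 0.08 and none passing. Klf4, a naive pluripotency factor, was 8.29 and 8.17 in T3, against 7.23 and 7.70 in DEX and 7.92 and 7.90 in TCDD (difference 0.54 ± 0.17 SE, adjusted p = 0.669), while its dimmest tested probe gave -0.23. Tdgf1, a Nodal coreceptor, was 9.84 and 9.67 in T3, against 9.47 and 9.48 in DEX and 9.44 and 9.35 in TCDD. Sall4 gave 0.22 ± 0.09 (SE), but another probe of it, detected on all 6 arrays, gave -0.17. Nanog was 11.50 and 11.23 in T3, against 11.28 and 11.10 in DEX and 11.02 and 11.08 in TCDD, and overlapped.

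Primed epiblast genes split, with 7 positive and 9 negative differences of 16. Otx2, a transcription factor of epiblast and forebrain, was 11.26 and 11.27 in T3, against 11.04 and 11.15 in DEX and 10.99 and 10.88 in TCDD. Pou3f1, likewise a factor of epiblast and neural progenitors, was lower at 11.49 and 11.56 in T3, against 11.65 and 11.92 in DEX and 11.78 and 11.67 in TCDD. Dnmt3b, a de novo DNA methyltransferase, was 14.70 and 14.69 in T3, against 14.75 and 14.92 in DEX and 14.96 and 14.84 in TCDD. Otx2 thus had both T3 values above the others, and Pou3f1 and Dnmt3b had both below. Pim2, a serine/threonine kinase, gave -0.50 on its brightest probe and 0.22 on another. The list had 6 genes of 16 with both T3 values below the others and 2 with both above, beside 9.19% and 8.32% of all genes. The primitive streak list held Axin2, a Wnt feedback gene, at 7.85 and 7.63 in T3, against 8.30 and 7.91 in DEX and 8.21 and 8.11 in TCDD.

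Heat shock and antioxidant genes were not uniform, and 4 with both T3 values above the other arrays are given here. Hspa4, a cochaperone of HSP70, was 9.10 and 9.34 in T3, against 8.83 and 8.65 in DEX and 8.53 and 8.64 in TCDD (difference 0.56 ± 0.17 SE, adjusted p = 0.669). Hspe1, the mitochondrial chaperonin partner, was 11.58 and 11.21 in T3, against 11.08 and 10.93 in DEX and 11.10 and 10.92 in TCDD. Of the 12 heat shock genes tested, 7 differences were positive and 5 negative. Of these 12 genes, 3 had both T3 values above the others and 0 both below, beside 8.32% and 9.19% of all genes.

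Gstm1, a glutathione transferase, was 9.62 and 9.55 in T3, against 9.40 and 9.07 in DEX and 9.05 and 9.14 in TCDD, while a second probe, detected on neither T3 array, gave -0.02. Prdx1, a peroxiredoxin, was 14.93 and 14.91 in T3, against 14.80 and 14.67 in DEX and 14.78 and 14.51 in TCDD. Of the 11 NRF2 targets tested, to which Gstm1, Prdx1 and Nqo1 belong, 4 differences were positive and 7 negative (median -0.04). In that list 2 genes had both T3 values above the others and 1, Nqo1, both below, beside 8.32% and 9.19% of all genes. Mcm3, a subunit of the replicative helicase, was 9.97 and 9.73 in T3, against 10.12 and 10.16 in DEX and 10.17 and 10.32 in TCDD, a difference of -0.34 ± 0.10 (SE, adjusted p = 0.669). Ccne2, a cyclin of S phase entry, was 7.87 and 7.59 in T3, against 8.30 and 8.25 in DEX and 7.89 and 8.15 in TCDD. Mcm3 and Ccne2 thus had both T3 values below the others. Of 26 cell cycle genes 9 differences were positive and 17 negative (median -0.05). There 3 genes had both T3 values above the others and 4 both below, beside those same 8.32% and 9.19% of all genes.

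The smallest p values over all genes, with both T3 values outside the range of the other arrays, are given as values only, since none passed. On the higher side, Ooep, a maternal-effect protein of oocytes and early embryos, was the brightest, at 13.20 and 13.34 in T3, against 12.96 and 12.68 in DEX and 12.83 and 13.05 in TCDD (difference 0.39 ± 0.09 SE, adjusted p = 0.471). Rab18, a small GTPase of the endoplasmic reticulum and lipid droplets, was 10.35 and 9.99 in T3, against 9.74 and 9.65 in DEX and 9.77 and 9.58 in TCDD. Mdh2, the mitochondrial malate dehydrogenase, was 11.22 and 11.38 in T3, against 11.004 and 10.89 in DEX and 11.02 and 10.90 in TCDD.

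Tmem218, Pheta1 and Arhgap29 had differences of 0.71, 0.65 and 0.56. Tmem218 gave 0.10 ± 0.25 (SE) on another probe detected on all 25 arrays, and Arhgap29 gave -0.12 on its dimmer probe. Gm5797, Ranbp2, Zfp457 and 1700029J07Rik were detected on none of the DEX and TCDD arrays, so only a bound holds for them. Against the lowest signal counted as detected, their T3 means were at least 1.27-fold, 1.27-fold, 1.44-fold and 1.04-fold higher. These bounds leave out the error, and the genes were picked for their separation. 1700029J07Rik was detected on 1 T3 array and on 2 of the 25 arrays, so it entered the test only through that T3 array.

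On the lower side, Gna12, a G protein subunit, was 6.83 and 6.70 in T3, against 7.46 and 7.40 in DEX and 7.70 and 7.82 in TCDD (difference -0.83 ± 0.21 SE, adjusted p = 0.535). Capn15, a calpain-like protease, was 7.23 and 7.55 in T3, against 8.04 and 7.98 in DEX and 8.07 and 8.15 in TCDD. Prkd1, protein kinase D, was detected on neither T3 array and on 3 of the 4 others. Its mean was at least 1.23-fold lower in T3, a bound that leaves out the error, while its other tested probe gave 0.23.

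Arfgap2 and Arfip2, which bind or act on Arf GTPases at the Golgi, gave -0.52 and -0.54 on their brightest probes, but other probes of them detected on all 6 arrays gave 0.41 and 0.13. Cdc42bpb, a kinase downstream of Cdc42, gave -0.41, Tmem259 gave -0.41, Rbm4, a splicing regulator, gave -0.38 and BC031181 gave -0.32.

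**Figure D5:**
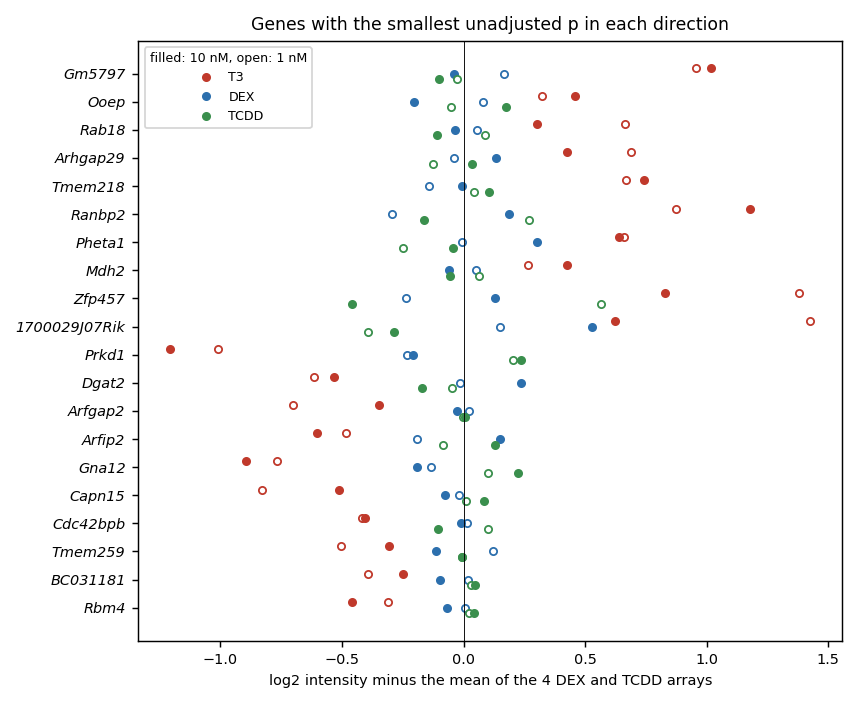
Log2 intensity on each T3 (red), DEX (blue) and TCDD (green) array relative to the mean of the 4 DEX and TCDD arrays, for the 10 higher and 10 lower genes with the smallest unadjusted p whose T3 values lie outside the others (open 1 nM, filled 10 nM). These genes were picked for that separation, so the gap in the picture is a description; the smallest adjusted p among them is 0.471.

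The hydroxylated pentachlorobiphenyl arrays (PCB, 1 nM and 10 nM), left out of the reference, are given side by side for a few of these genes. These few do not stand for the rest. Hspa4 was 10.00 and 9.68 on the PCB arrays and Mdh2 was 11.71 and 11.82, each above both T3 values given above. Gna12 was 7.03 and 6.58 on the PCB arrays and Dgat2 was 8.06 and 8.20, near the T3 values. Other genes did not side with T3. Nqo1 was 8.82 and 8.89 on the PCB arrays and Tmem259 was 10.03 and 9.90, each within the range of the DEX and TCDD arrays. Mcm3 was 10.39 and 10.23, above both T3 values, and Pdk4 was 6.54 and 6.99, below both. Me1 was 8.92 and 8.74 on the PCB arrays, where the T3 value at 10 nM was 8.96. The raw medians of the PCB arrays were 16.3 and 14.0, and the part of raw signal in these gene values was not tested.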

How the data were processed

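Total RNA of EBs was hybridised to Illumina mouse WG-6 bead arrays, 1 array per dose. The authors deposited intensity values, background-subtracted but not normalized, with a detection p-value per probe and array. A second table, deposited as intensity normalized by the authors in GeneSpring, served as an alternative. The intensities were background-corrected with limma 3.58.1 (R 4.3.3; nec on the detection p-values, offset 16), quantile-normalized over 25 arrays and turned to log2 values. A probe entered the fit when 2 or more arrays detected it at p under 0.01. The fit had the 12 chemicals and DMSO as groups, with the doses of a chemical as its replicates, 12 residual degrees of freedom, and eBayes with a trend. T3 was contrasted with the mean of DEX and TCDD, with an adjusted p threshold of 0.05. The number of arrays limits the precision.

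Probe names came from the platform annotation: 34885 probes had 1 symbol, 18 several and 10378 none. A gene was represented by its brightest tested probe. Named genes were the targets Me1 and Klf9, members of the thyroid hormone lists, up to 4 members of other lists by smallest p, and 10 genes per direction by smallest p with T3 outside the other arrays, values only. In a bound, a probe's mean on the group with detections was set against, on each array of the other group, the higher of its own signal and the lowest detected signal. Exact permutation tests used SciPy 1.17.1. The gene lists and members were chosen with earlier results of these data known. The fit was run on simulated data with independent noise, as a check of the code that required most large added changes to be called. It was not used to state the power for differences as small as those above. The methods state triplicates where the labels give 1 array per dose; whether RNA was pooled is not given in the sources used here. Alternatives covered background, normalization, filter, reference and left-out arrays.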

Additional observations from a re-analysis of the deposited data

How the results depend on the processing

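The count of probes past the threshold was 0 in all 3 comparisons under every left-out array: without 1 of the 6 arrays the smallest adjusted p for T3 against DEX and TCDD was 0.507 to 0.9997. It was also 0 there with the deposited signal floored at 16, an offset of 50, median centring, normalization over 6 arrays, the authors' normalized table, probes detected on all 6 arrays, no filter, no trend, 1 mean per gene, and PCB added to the reference (smallest adjusted p 0.07255 to 0.505). A single higher probe with no gene symbol (ILMN_1228717, log2 difference 0.42) passed with only the 6 arrays fitted (adjusted p = 0.0138), with 8 arrays (adjusted p = 0.0421) and with dose as a term (adjusted p = 0.0114). For T3 against TCDD, the dose term gave 1 higher and 1 lower and no filter gave 2 lower. Against DMSO, 1 array, 416 were higher and 223 lower. The methods' t-test without adjustment gave 651 higher and 677 lower against both, 515 and 518 against DEX, and 632 and 640 against TCDD. The number of an array marks its dose, so the fit with dose as a term is the one that blocks the 6 arrays by dose, and it gave the counts above.

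Me1 kept its sign under all 23 alternatives (0.17 without the T3 array at 1 nM to 0.43), and none called it. Of 61 genes followed, 19 changed sign at least once. The medians of the thyroid hormone, glucocorticoid and AhR target lists were followed as well. Of their alternative values, 57 shifted by less than the standard deviation of the list medians at 1 nM and 10 nM, and 9 by more. Klf9 ranged from -0.0489 to 0.0391 over the left-out arrays (0.0031 without DEX at 1 nM and 0.0067 without TCDD at 10 nM) and was 0.0261 against TCDD. Cyp1b1 ranged from -0.136 to 0.0389 over the left-out arrays (0.0242 without DEX at 1 nM) and was 0.479 against DEX. Rxrb was 0.0256 without T3 at 1 nM and -0.183 without T3 at 10 nM, and Rxra was -0.22 against TCDD. Acaa2 was 0.0115 as a mean of its probes. With PCB in the reference, Slc7a8 was 0.13, Ttr 0.0520 and Tdgf1 -0.0783. Against DMSO, the signs changed for Arnt (-0.72), Elovl6 (-0.41), Dcn (-0.42), Rxra (-0.30), Pdk4 (-0.23), Nanog (-0.20), Otx2 (-0.0847), Cdkn1c (0.0199), Cyp1b1 (0.0267), Ttr (0.0502), Ccne2 (0.18), Hr (0.37), Pou3f1 (0.42), Rxrb (0.57) and Dio3 (0.60). The cause of these changes was not tested.

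With 1 array per dose, the spread includes any effect of dose, and array, culture and chemical cannot be told apart. Dim probes such as those of Thra and Thrb give no level.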
